A study of Homo sapiens with 18 samples.

Results

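The 10 genes described here encode the sterol-responsive regulator of lipogenesis and the enzymes that make, elongate and desaturate fatty acids: SREBF1, ACLY, ACSS2, ACACA, FASN, SCD, ELOVL6, FADS1, FADS2 and ME1. They were listed by name, from 36684 genes in the count table, and all 10 were among the 14557 genes that passed the filter on low counts. RNA-seq was run on Hep3B, an established human liver cancer cell line, in 6 groups of 3 libraries. Con was the control group, Model was Hep3B loaded with free fatty acids (FFA) to induce steatosis, and FUCO-0.5, FUCO-1 and FUCO-2 were the groups of that steatosis model treated with fucoxanthin at 0.5, 1 and 2 µM, so that FUCO against Model compares FFA-loaded cells and FUCO against Con compares both agents with neither. RES was the group of the study's positive control, Resmetirom, an agonist of thyroid hormone receptor beta. The FFA mixture, the treatment times, the RES dose and whether RES libraries also received FFA are not given for these libraries in the sources used here. All libraries come from a single cell line in culture, so they model hepatocyte-like tumour cells without the other cells of the liver.

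Fatty acid synthesis starts in the cytosol from acetyl-CoA. ACLY makes it from citrate and ACSS2 from acetate, ACACA carboxylates it to malonyl-CoA, and FASN builds palmitate with NADPH that ME1 helps to supply. ELOVL6 lengthens palmitate to stearate, SCD places the first double bond in saturated chains, and FADS1 and FADS2 desaturate polyunsaturated chains. SREBF1 encodes SREBP-1, which resides in the endoplasmic reticulum and drives these genes after cleavage. Its processing is restrained by sterols and its transcription and activity by unsaturated fatty acids, and the liver is a main site of the pathway.

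Promoter windows from RefSeq (GRCh38.p14) were searched, on both strands and over 250 bases before the start, for the sterol regulatory element TCACNCCAC, the E-box CACGTG, the CCAAT box and the GC box GGGCGG. The table held 14 windows for 9 of the genes, and FASN had no entry. An ACLY, an SCD and the ME1 window are shown because these genes carry 3 of the patterns of response described below. ACLY was reduced mainly in Model, SCD fell in Model and again with FUCO-2, and ME1 rose. Other genes, such as ELOVL6, followed none of these. Capitals mark CCAAT and GC boxes, read on either strand, and each sequence runs 5′ to 3′ along the gene. No annotated exon overlaps any of these windows. The SCD and ME1 windows end next to the span of their gene. The ACLY window lies inside the span of its gene (41866917 to 41930545), before an inner start, and so does the ELOVL6 window, not shown.
ACLY, chr17:41919023-41919272, minus strand: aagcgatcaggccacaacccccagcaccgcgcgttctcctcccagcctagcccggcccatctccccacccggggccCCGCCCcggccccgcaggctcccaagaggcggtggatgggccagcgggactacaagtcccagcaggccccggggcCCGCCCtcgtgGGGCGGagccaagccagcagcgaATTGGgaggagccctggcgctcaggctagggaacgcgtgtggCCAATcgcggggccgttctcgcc
SCD, chr10:100346983-100347232, plus strand: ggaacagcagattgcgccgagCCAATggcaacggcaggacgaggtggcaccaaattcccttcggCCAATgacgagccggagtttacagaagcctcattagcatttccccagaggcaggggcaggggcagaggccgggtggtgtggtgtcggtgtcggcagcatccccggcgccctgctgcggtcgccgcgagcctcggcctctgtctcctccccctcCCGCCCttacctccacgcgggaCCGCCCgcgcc
ME1, chr6:83431052-83431301, minus strand: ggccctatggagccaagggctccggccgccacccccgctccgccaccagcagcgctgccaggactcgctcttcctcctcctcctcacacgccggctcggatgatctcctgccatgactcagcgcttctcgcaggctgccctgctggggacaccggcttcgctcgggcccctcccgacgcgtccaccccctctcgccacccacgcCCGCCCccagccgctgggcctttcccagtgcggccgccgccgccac
The ACLY window holds 2 CCAAT and 3 GC boxes, the SCD window 2 and 2, and the ME1 window 0 and 1. Over the 14 windows, 6 hold a CCAAT box, found in 32% of all 35116 promoter windows of that length, and 12 hold a GC box, found in 42.6%. The windows are not all separate: those of ACLY share most of their bases, so the same boxes count in both, and those of FADS2 overlap. The exact sterol regulatory element was in 0 of the 14 windows (0.883% of all) and the E-box in 0 (6.34% of all), which says only that these letters are not in these windows.

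On GRCh38.p14, SREBF1 (17811334 to 17836986), ACLY (41866917 to 41930545), ACACA (37084992 to 37406836) and FASN (82078338 to 82098236) lie on the minus strand of chromosome 17. SCD lies on the plus strand of chromosome 10 (100347233 to 100364826), ACSS2 on the plus strand of chromosome 20 (34874989 to 34927959), ELOVL6 on the minus strand of chromosome 4 (110045846 to 110199202) and ME1 on the minus strand of chromosome 6 (83210402 to 83431051). FADS1 and FADS2 are neighbours on chromosome 11 and are placed below. Counts are per gene, so isoforms are not separated.

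Library totals ran from 16916688 to 23083498 counts. Levels below are CPM, the counts of a gene divided by its library's TMM-adjusted total. The 10 genes took 0.476% to 1.36% of all counts, and SCD alone took 0.237% to 0.715%. Hepatocyte markers (ALB, APOA1, APOB and 5 others) summed to 53810 to 57290 CPM in Con, 46140 to 47260 in Model, 32380 to 36990 in FUCO-2 and 15090 to 15380 in RES. Marker CPM use library totals without the TMM adjustment. ALB was the largest part of the sum, at 7935 to 40370 CPM over the 18 libraries. AFP ran from 94.05 to 6219, APOA1 from 129.6 to 1065, TTR from 37.13 to 213.3 and FGB from 36.39 to 171 CPM. APOB (3422 to 6472), SERPINA1 (2243 to 3469) and HNF4A (245 to 374.5) varied by smaller factors. The list of 4 fibroblast markers summed to 7.367 to 17.92 CPM in Con, 5.12 to 6.824 CPM in Model and 9.704 to 12.45 CPM in RES, with LUM at 51 to 306 counts, COL1A1 at 12 to 56, DCN at no more than 3 and COL3A1 at 0. The 3 endothelial markers summed to no more than 1.905 CPM, with PECAM1 at 3 to 36 counts, VWF at no more than 1 and CDH5 at 0. The leukocyte list summed to 2.671 to 3.492 CPM in Con and to 12.23 to 17.53 CPM in Model, nearly all of it LYZ, with PTPRC at no more than 2 counts in any library. Con replicate 1 stood apart from Con replicates 2 and 3, FUCO-2 replicate 1 stood apart within its group, and the RES libraries separated from all others on the first principal component. The chi-square of the counts per degree of freedom was 15.1 and 12.8 for Con replicate 1 against its partners, and 2.26 between them. FUCO-0.5 libraries differed as much, at 5.69 to 17.3, the highest between replicates 2 and 3. FUCO-1 replicate 3 also stood apart from its partners, at 9.71 and 10.7 against 4.39 between them. Values without Con replicate 1 or FUCO-2 replicate 1 stand beside the results they move. The part of the marker differences in the results was not tested, and the separation of the RES libraries and the RES treatment cannot be told apart. In bulk RNA, fewer cells with a transcript and less of it per cell cannot be told apart.

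Per kilobase of transcript, the mean level in Con was 1355 CPM for SCD, 446.8 for FASN, 269.2 for ACLY, 171.8 for FADS1, 118.5 for ACSS2, 77.7 for SREBF1, 24.02 for FADS2, 18.42 for ELOVL6, 10.95 for ME1 and 6.973 for ACACA. SCD was also the highest of the 10 in RES, at 443.2 CPM per kilobase. ME1 was the ninth in Con and the fifth in RES, at 45.12 CPM per kilobase, between FADS1 at 72.02 and SREBF1 at 27.73.

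**Figure D1:**
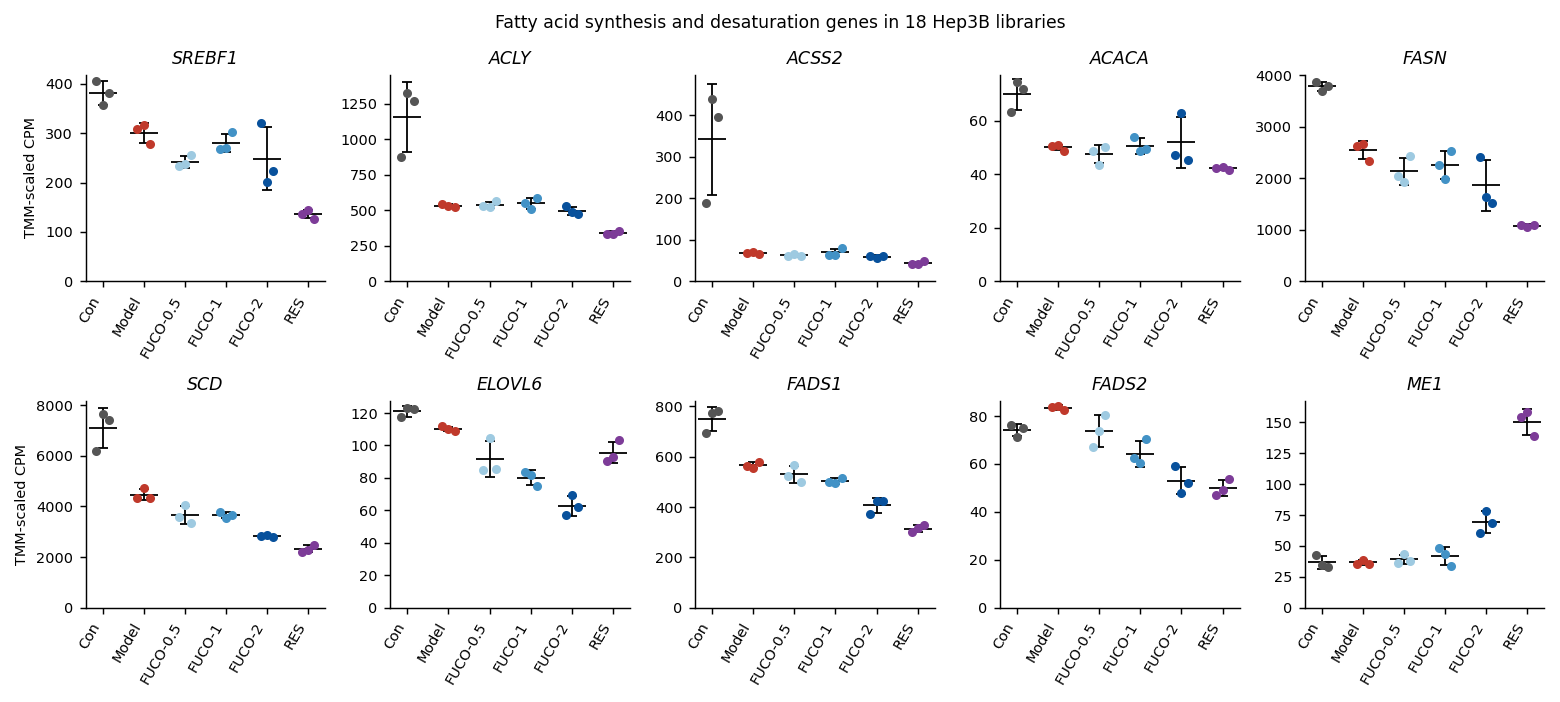
Level of each gene in TMM-scaled CPM (vertical axis, from 0, with its own range per panel) in the 18 libraries by group (horizontal axis). Coloured points are libraries, and black bars are the mean and SD of 3 libraries. SCD stepped down from 7105 CPM in Con to 2325 CPM in RES, while ME1 stayed near 36.6 CPM in Con and Model and reached 150.6 CPM in RES.

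SREBF1, the regulator, was at 405, 357 and 381 CPM in the Con libraries and at 309, 316 and 278 CPM in Model. The FUCO-0.5 libraries held 233, 237 and 256 CPM, FUCO-1 held 269, 270 and 302 CPM, and FUCO-2 held 321, 201 and 223 CPM. RES libraries were at 137, 144 and 127 CPM. Every Con library was above every Model library and every RES library was below all others, whereas the FUCO-1 and FUCO-2 libraries overlapped Model. On the log2 scale used for all changes below, Model differed from Con by -0.34 (SE 0.111, adjusted p = 0.0354). That call was lost without Con replicate 1 (adjusted p = 0.0854), Con replicate 3 (0.084), Model replicate 1 (0.0682), Model replicate 2 (0.0564) or Model replicate 3 (0.157). FUCO-2 against Model gave -0.28 (SE 0.111, adjusted p = 0.0805), and -0.51 (adjusted p = 0.000123) without FUCO-2 replicate 1, which alone lay above the Model libraries, and passed with no filter on low counts (0.00974). FUCO-0.5 against Model gave -0.31 (adjusted p = 0.226), and -0.31 (adjusted p = 0.0191) without that same FUCO-2 library, which enters the shared spread. It also passed in a fit of the 2 groups alone (0.0136) and with no filter (0.0112). RES was lower than Model by -1.15 (SE 0.113, adjusted p = 8.72e-09), 45.2% of the Model level.

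ACSS2, which activates acetate, held 189, 440 and 397 CPM in Con against 67.1, 71.5 and 66.6 CPM in Model. It remained at 59.8, 66.9 and 61.2 CPM in FUCO-0.5, at 64.2, 64.5 and 79.8 CPM in FUCO-1 and at 62, 55 and 61.5 CPM in FUCO-2. In RES it was at 40.5, 41.1 and 47.7 CPM. Its drop in Model was the largest of the 10 genes, at -2.32 (SE 0.179, adjusted p = 3.15e-09), or 20% of the Con level. Con replicate 1 was at 45.2% of the mean of the other Con libraries, and the change was -2.61 without it. FUCO-0.5 and FUCO-1 overlapped Model, while the FUCO-2 libraries lay just below it, and FUCO-2 against Model gave -0.20 (95% interval -0.57 to 0.17, adjusted p = 0.463). RES was below every other library and lower than Model by -0.67 (SE 0.179, adjusted p = 0.00343).

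ACLY, which cleaves citrate to acetyl-CoA, was at 874, 1323 and 1269 CPM in Con and at 542, 528 and 521 CPM in Model. The FUCO groups lay between 472 and 586 CPM, and the RES libraries held 330, 331 and 353 CPM. Model was lower by -1.12 (SE 0.102, adjusted p = 4.87e-08), and by -1.29 without Con replicate 1, which was at 67.5% of the mean of the other Con libraries. All FUCO groups overlapped Model, with FUCO-2 against Model at -0.10 (95% interval -0.31 to 0.11, adjusted p = 0.533). RES was lower than Model by -0.65 (SE 0.102, adjusted p = 1.02e-05). ACLY and ACSS2 were the 2 genes of the 10 that were called in Model and also changed by more than 1 on the log2 scale, the study's fold threshold, which 1.95% of all genes tested passed.

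ACACA, the rate-limiting carboxylase, was at 63.4, 74.3 and 71.8 CPM in Con and at 50.5, 50.7 and 48.7 CPM in Model. FUCO-0.5, FUCO-1 and FUCO-2 ranged from 43.5 to 50.1, from 48.6 to 53.9 and from 45.4 to 62.9 CPM, and RES from 41.5 to 42.7 CPM. Con stood above Model in every library, with a change of -0.48 (SE 0.0953, adjusted p = 0.000872). FUCO-2 against Model gave 0.06 (95% interval -0.14 to 0.25, adjusted p = 0.735), and -0.11 (adjusted p = 0.447) without FUCO-2 replicate 2, the highest of its group. RES was lower than Model by -0.25 (SE 0.0963, adjusted p = 0.0364), a call lost without any 1 of the Model or RES libraries (adjusted p from 0.055 to 0.0903).

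FASN, the multienzyme that builds palmitate, held 3871, 3690 and 3784 CPM in Con and 2634, 2663 and 2339 CPM in Model. FUCO-0.5 libraries were at 2045, 1930 and 2436 CPM, FUCO-1 libraries at 2258, 1992 and 2537 CPM and FUCO-2 libraries at 2422, 1641 and 1521 CPM. RES held 1089, 1053 and 1101 CPM. Model did not overlap Con, RES was below every other library, and FUCO-2 replicate 1 lay inside the Model range while its 2 partners lay far below. The change in Model was -0.57 (SE 0.122, adjusted p = 0.00183). FUCO-2 was lower than Model by -0.45 (SE 0.122, adjusted p = 0.0103), which became -0.69 (adjusted p = 2.3e-05) without FUCO-2 replicate 1 and was not called without replicate 2 (adjusted p = 0.0661) or replicate 3 (0.0692). RES was lower than Model by -1.24 (SE 0.124, adjusted p = 1.15e-08), 42.5% of the Model level.

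SCD, the stearoyl-CoA desaturase, held 6203, 7671 and 7442 CPM in Con and 4346, 4744 and 4332 CPM in Model. FUCO-0.5 libraries were at 3576, 4072 and 3340 CPM, FUCO-1 libraries at 3765, 3539 and 3658 CPM and FUCO-2 libraries at 2828, 2882 and 2795 CPM. RES reached 2210, 2280 and 2485 CPM. The group means descended in the order Con, Model, FUCO-0.5, FUCO-1, FUCO-2 and RES, and among neighbours only FUCO-0.5 and FUCO-1 overlapped. Model was lower than Con by -0.67 (SE 0.085, adjusted p = 5.39e-06) and FUCO-2 lower than Model by -0.66 (SE 0.085, adjusted p = 6.97e-06). FUCO-1 against Model gave -0.29 (SE 0.0847, adjusted p = 0.0566), which passed 0.05 without Con replicate 1 (0.0243), FUCO-0.5 replicate 2 (0.0329), FUCO-0.5 replicate 3 (0.0479) or FUCO-2 replicate 1 (0.0403). DESeq2, the study's own tool, also called it (0.0127), as did a fit of the 2 groups alone (0.00199) and a fit with no filter on low counts (0.00812). FUCO-0.5 against Model gave -0.29 (adjusted p = 0.103), and passed without Con replicate 1 (0.0424) or FUCO-0.5 replicate 2 (0.0355), with DESeq2 (0.0215) and with no filter (0.0113). RES against Model gave -0.95 (SE 0.0854, adjusted p = 1.93e-09).

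ELOVL6, the palmitate elongase, was at 117, 123 and 122 CPM in Con and at 112, 110 and 109 CPM in Model. FUCO-0.5 held 85, 104 and 85.6 CPM, FUCO-1 held 83.6, 81.8 and 75 CPM and FUCO-2 held 57.2, 69.3 and 61.8 CPM. RES stayed at 90.6, 93.1 and 103 CPM. Here FUCO-2 and not RES was the lowest group, and its libraries overlapped no other group. The difference between FUCO-2 and RES was not tested. Model against Con gave -0.13 (95% interval -0.30 to 0.04, adjusted p = 0.284), while FUCO-1 was lower than Model by -0.46 (SE 0.0832, adjusted p = 0.00142) and FUCO-2 by -0.81 (SE 0.0842, adjusted p = 3.11e-07). FUCO-0.5 against Model gave -0.27 (adjusted p = 0.139), and -0.37 (adjusted p = 0.0264) without FUCO-0.5 replicate 2. RES against Model gave -0.21 (SE 0.0824, adjusted p = 0.0417), and was not called without Model replicate 1 (0.104), 2 (0.0816) or 3 (0.0727), without RES replicate 1 (0.161) or 2 (0.122), with upper quartile scaling (0.0579) or with no filter on low counts (0.0558).

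FADS1, the delta-5 desaturase, was at 695, 774 and 781 CPM in Con and at 563, 556 and 581 CPM in Model. FUCO-0.5 held 522, 568 and 501 CPM, FUCO-1 held 499, 495 and 516 CPM and FUCO-2 held 374, 422 and 423 CPM. The RES libraries were at 301, 315 and 327 CPM. FUCO-1, FUCO-2 and RES were each below every Model library. Model was lower than Con by -0.40 (SE 0.0704, adjusted p = 0.00024), FUCO-2 lower than Model by -0.48 (SE 0.0706, adjusted p = 3.66e-05) and RES lower than Model by -0.85 (SE 0.071, adjusted p = 4.72e-10). FUCO-1 against Model gave -0.17 (adjusted p = 0.209).

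FADS2, the delta-6 desaturase, was at 76.2, 71.3 and 75.2 CPM in Con and at 83.8, 84.3 and 82.6 CPM in Model. FUCO-0.5 held 67, 73.7 and 80.5 CPM, FUCO-1 held 62.3, 60.2 and 70.5 CPM and FUCO-2 held 59.3, 48 and 51.9 CPM. RES was at 46.9, 49.2 and 53.8 CPM. FADS2 was the 1 gene of the 10 whose Model libraries all lay above Con, with a log2 fold change of 0.17 (95% interval -0.002 to 0.34, adjusted p = 0.172). FUCO-1 was lower than Model by -0.38 (SE 0.0842, adjusted p = 0.0103), a call lost without Model replicate 2 (0.0532), FUCO-1 replicate 1 (0.0545) or FUCO-1 replicate 2 (0.0621). FUCO-2 was lower than Model by -0.66 (SE 0.0851, adjusted p = 7.32e-06) and RES by -0.74 (SE 0.0847, adjusted p = 9.77e-08). FADS1 and FADS2 overlap on opposite strands of chromosome 11 (GRCh38.p14, FADS1 61799627 to 61817003 and FADS2 61816203 to 61867354), and FADS2 also holds FEN1. Whether the counting used the strand is not given in the sources used here, so reads in the shared stretch are uncertain, as for SREBF1 with RAI1, ACSS2 with GGT7 and ACACA with C17orf78, each on the opposite strand. ACLY, ACACA and ELOVL6 also overlap lncRNAs, and ACACA, ELOVL6 and ME1 overlap pseudogenes. FASN and SCD overlap no annotated gene.

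ME1, the cytosolic malic enzyme that yields NADPH, was at 42.3, 34.5 and 32.9 CPM in Con and at 35.5, 38.9 and 35.2 CPM in Model. FUCO-0.5 held 35.8, 43.3 and 38 CPM, FUCO-1 held 48.2, 43.1 and 33.6 CPM and FUCO-2 held 60.6, 78.5 and 68.9 CPM. The RES libraries held 155, 158 and 139 CPM. ME1 was the 1 gene that rose: RES stood above all other groups and FUCO-2 above all but RES, while Con, Model and the 2 lower doses overlapped. FUCO-2 was higher than Model by 0.92 (SE 0.116, adjusted p = 4.51e-06), or 1.9-fold, and RES by 2.04 (SE 0.116, adjusted p = 3.82e-13), or 4.12-fold. Model against Con gave -0.001 (95% interval -0.24 to 0.24, adjusted p = 0.998).

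**Figure D2:**
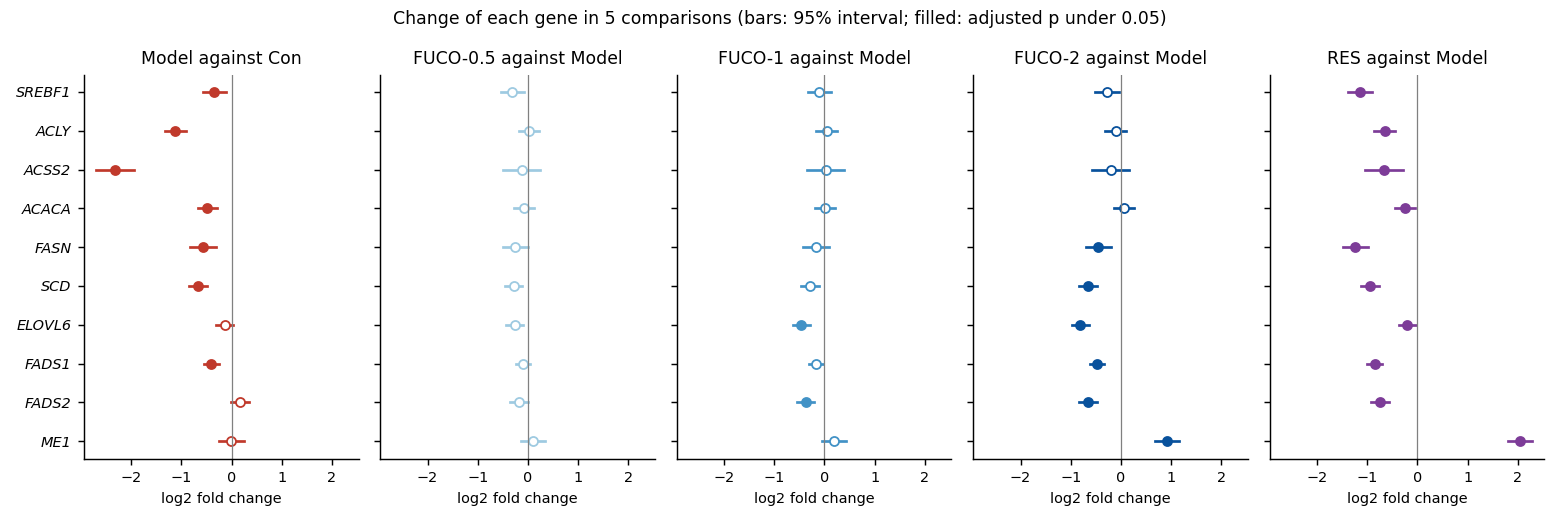
Log2 fold change of each of the 10 genes (rows) in 5 comparisons (panels), with 95% intervals as bars and filled points where the adjusted p was under 0.05. In Model against Con the filled points lie left of 0, down to -2.32 for ACSS2, and in FUCO-2 and RES against Model ME1 alone lies filled on the right, at 0.92 and 2.04.

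Counted together, Model against Con changed 7 of the 10 genes, all lower, where 9.12% of all genes tested were lower and 8.43% higher. The median log2 fold change of the 10 was -0.44, against 0.001 for all genes tested. Without Con replicate 1 the count was 6, and the share of all genes called in that fit was not counted. FUCO-0.5 against Model called 0 of the 10 by edgeR's adjusted p, where 0.289% of all genes were higher and 1.16% lower. DESeq2 called 1 of them, SCD. At the looser cut of an unadjusted edgeR p under 0.05, 5 were lower (SREBF1, FASN, SCD, ELOVL6 and FADS2). The share of all genes was not counted for DESeq2 or at the looser cut, so these 2 counts cannot be set against the shares above. FUCO-1 against Model changed 2, both lower (ELOVL6 and FADS2), where 0.893% were higher and 2.32% lower. The counts ran from 1 to 3 as single libraries were left out.

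FUCO-2 against Model changed 6 of the 10: FASN, SCD, ELOVL6, FADS1 and FADS2 fell and ME1 rose, where 9.71% of all genes were lower and 10.8% higher. RES against Model changed all 10, with ME1 higher and the other 9 lower (ACACA and ELOVL6 losing their calls in the fits named above), where 25.1% were lower and 24.4% higher. Of these, SREBF1, FASN and ME1 passed the fold threshold as well, as 9.91% of all genes did. The summed hepatocyte markers, with ALB as the largest part, were also lowest in the RES libraries. The sum does not show which of the markers fell, and their part in this was not tested. The comparisons of FUCO and RES with Model share the 3 Model libraries.

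Between doses, FUCO-2 against FUCO-0.5 called 5 of the 10, where 15.1% of all genes were called. SCD (-0.37), ELOVL6 (-0.55), FADS1 (-0.38) and FADS2 (-0.48) were lower and ME1 (0.83) was higher, with adjusted p from 3.31e-05 to 0.00432, and FASN was lower as well without FUCO-2 replicate 1 (-0.43, adjusted p = 0.00368). FUCO-2 against FUCO-1 called 4, where 6.3% of all genes were called: SCD (-0.37, adjusted p = 0.0102), ELOVL6 (-0.35, adjusted p = 0.0124), FADS1 (-0.31, adjusted p = 0.00941) and ME1 (0.73, adjusted p = 0.000281). FADS2 lay next to the threshold, at -0.28 (adjusted p = 0.0517), and passed it with DESeq2 (0.0285), with other scalings (0.0365 and 0.0487), with other filters (0.0373 and 0.0496) and without Con replicate 1 (0.0419), FUCO-0.5 replicate 3 (0.0438) or FUCO-1 replicate 2 (0.0443). Without FUCO-2 replicate 1 the count against FUCO-1 was 7, with SREBF1 (-0.40, adjusted p = 0.00419), FASN (-0.52, adjusted p = 0.0019) and FADS2 (-0.365, adjusted p = 0.0127) added. The share of all genes called in that fit was not counted. ELOVL6 was not called without FUCO-1 replicate 1 (adjusted p = 0.0611), nor FADS1 in a fit of the 2 groups alone (adjusted p = 0.0717). ACLY, ACSS2 and ACACA were called in neither dose comparison, with 95% intervals for FUCO-2 against FUCO-1 of -0.35 to 0.06, -0.59 to 0.14 and -0.16 to 0.23.

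Against Con, 8 of the 10 were lower in FUCO-0.5 (21.9% of all genes called) and 8 in FUCO-1 (18.3%), with FADS2 and ME1 not called in either, though FADS2 was called in FUCO-1 without FUCO-1 replicate 3 (adjusted p = 0.0383). FUCO-2 called all 10 (24.8% of all genes), with SCD at 39.9% and ELOVL6 at 51.9% of the Con mean, and ME1 at 190%. RES called all 10 (57.3% of all genes), from ACSS2 at 12.6% to ELOVL6 at 79% of the Con mean, with ME1 at 412%.

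**Figure D3:**
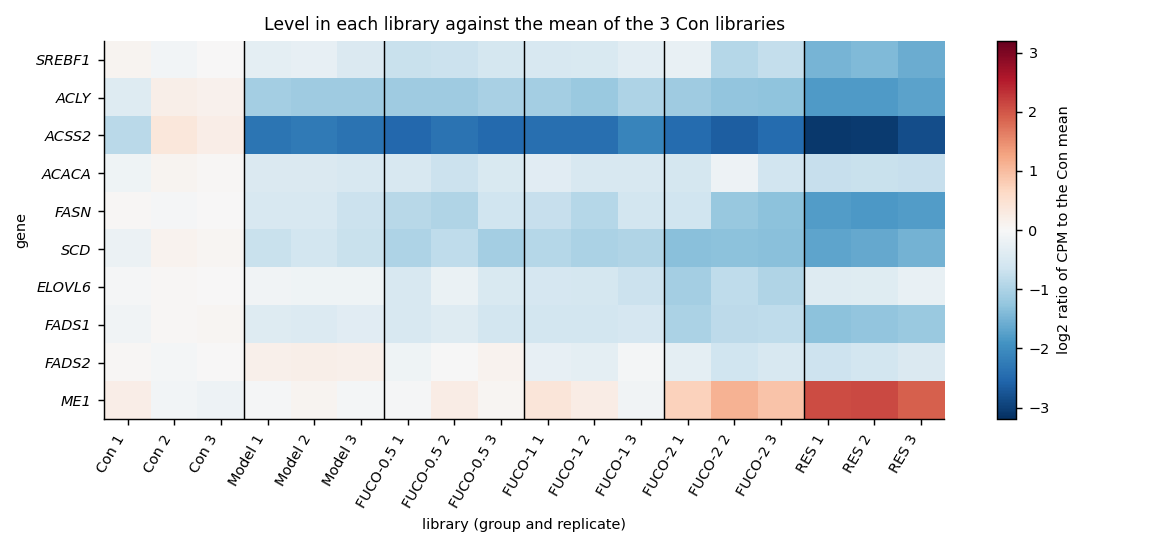
Log2 ratio of each library's CPM to the mean of the 3 Con libraries, with genes as rows, the 18 libraries as columns and black lines between groups. Blue is below and red above Con. ACSS2 is the darkest row from Model on, Con replicate 1 is pale blue in that row, and ME1 turns red in FUCO-2 and RES.

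SREBP-1 works within a set of regulators that retain, cleave or cooperate with it. The counts of this and the following lists stand against the shares of all genes given above, 9.12% lower and 8.43% higher in Model, 9.71% and 10.8% in FUCO-2 and 25.1% and 24.4% in RES. Of 14 such genes tested, 4 fell and 0 rose in Model (median -0.12, against 0.001 over all genes): INSIG1 (-0.82), which retains the SREBP complex, MLXIPL (-0.60), which encodes the glucose-responsive factor ChREBP, SREBF2 (-0.42), the cholesterol-side SREBP, and NR1H3 (-0.31), the liver X receptor alpha. In FUCO-2 against Model 2 fell and 0 rose (median 0.06, against 0.01), INSIG1 (-0.56) and USF1 (-0.22). That count is below the share of all genes called. In RES against Model 5 rose and 5 fell (median 0.14, against 0.002), led by the coactivator gene PPARGC1B (2.27, at 35 to 64 counts in RES and 6 to 10 in Model), INSIG1 (-0.57) and the protease gene MBTPS2 (0.57). THRSP, a lipogenic thyroid hormone target, was too low to test, with at most 4 counts in a library.

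Among 16 other synthesis, elongation and desaturation enzymes, 3 fell and 0 rose in Model (median -0.05): HSD17B12 (-1.09), the ketoacyl reductase of the elongation cycle, PNPLA3 (-0.71), a lipase-like protein of lipid droplets, and the elongase ELOVL5 (-0.56). In FUCO-2 against Model 4 were lower and 1 higher (median -0.12), led by ELOVL2 (-0.36), FADS3 (0.35) and HSD17B12 (-0.32). In RES against Model 4 were higher and 3 lower (median 0.08), led by the elongase ELOVL4 (2.15), PNPLA3 (-1.54) and the second desaturase gene SCD5 (1.28, at 8 to 26 counts in RES and 4 to 9 in Model). DESeq2 did not call SCD5 (adjusted p = 0.0847). The count of 7 of 16 in RES is near the share of all genes called, as is the 3 of 16 in Model. The acetyl-CoA and NADPH supply list of 13 showed 6 lower and 0 higher genes in Model (median -0.25), led by PGD (-0.52) of the pentose phosphate pathway, the citrate carrier SLC25A1 (-0.47) and the NADP-dependent dehydrogenase IDH1 (-0.43). In FUCO-2 3 of the 13 were higher and 0 lower (median 0.08), among them TKT (0.53) of the pentose phosphate pathway and the mitochondrial malic enzyme ME2 (0.43). That count is near the share of all genes called in either direction. In RES 6 were higher and 2 lower (median 0.20), among them SLC25A1 (-0.69) and ME2 (0.59).

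The 10 cholesterol-side SREBP targets followed a single direction. In Model all 10 were lower (median -0.65), among them MVD (-1.03) of the mevalonate pathway and the sterol carrier STARD4 (-1.02). Against Model, 0 were called in FUCO-0.5 by edgeR (median -0.21, with 2 called by DESeq2), 2 were lower in FUCO-1 (median -0.25), among them HMGCS1 (-0.38), and 9 were lower in FUCO-2 (median -0.47), among them HMGCS1 (-0.70). In RES all 10 were lower (median -0.87), among them HMGCS1 (-1.43) and LSS (-1.36).

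LXR targets, which report on oxysterol signalling, had 2 of 7 lower in Model (median -0.02), the cholesterol exporter ABCA1 (-0.49) and PLTP (-0.39, adjusted p = 0.0411, with 0.0568 by DESeq2). In FUCO-2 4 were lower and 0 higher (median -0.27), led by MYLIP (-0.67), SMPDL3A (-0.42) and LPCAT3 (-0.38). MYLIP, a ubiquitin ligase, was also lower in FUCO-0.5 (-0.80) and FUCO-1 (-0.84). In RES 6 were lower and 1 higher (median -1.13), led by ABCG8 (-1.83), MYLIP (-1.21) and ABCA1 (-1.20). Thyroid hormone response genes had 3 of 9 higher and 2 lower in RES (median 0.20), led by G0S2 (3.35, at 47 to 51 counts in RES and 3 to 5 in Model), KLF9 (2.10) and CPS1 (-2.07), which is near the share of all genes called. In Model 2 were higher (median 0.11), KLF9 (0.70) and G0S2, which held 0 or 1 count in each Con library, so that no fold is given, and was not called by DESeq2 (adjusted p = 0.122). In FUCO-2 against Model 2 of the 9 were lower and 0 higher (median -0.05), RCAN2 (-1.30) and KLF9 (-0.39). The counts of 2 in Model and in FUCO-2 are likewise near the share of all genes called.

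**Figure D4:**
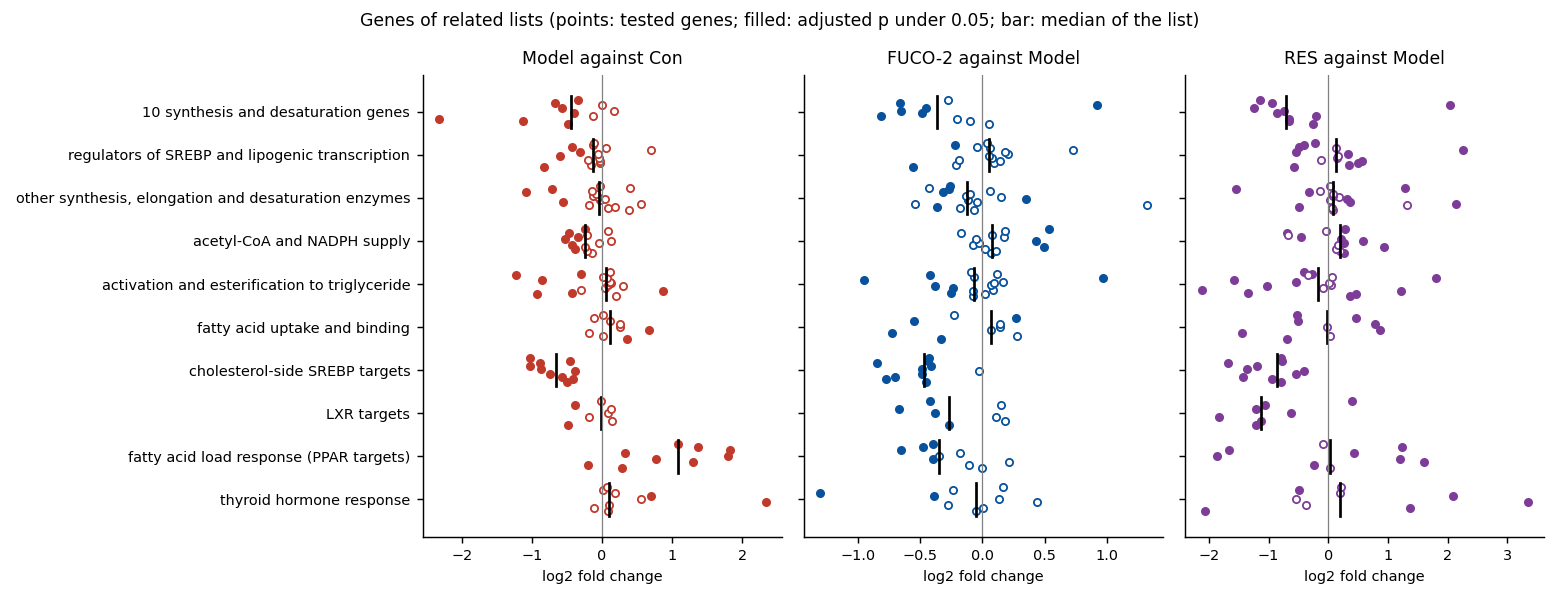
Log2 fold changes (horizontal axis, with its own range per panel) of the 10 genes and of the tested genes of 9 related lists (rows) in 3 comparisons (panels), with filled points for an adjusted p under 0.05 and a black bar at each median. The cholesterol-side list lies left of 0 in all panels (medians -0.65, -0.47 and -0.87), while 8 of the 9 called PPAR targets lie right of 0 in Model (median 1.09).

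By shape over the 6 group means, the nearest genes to FADS1 were FDFT1 (root mean square difference 0.0327 on the centred log2 scale) and SQLE (0.0628), both of sterol synthesis. SCD lay nearest to the pyruvate carrier gene MPC1 (0.0663) and to FDPS (0.0683), FASN to PCYT2 (0.0733) and A2M (0.0867), and SREBF1 to NREP (0.0513) and PANK1 (0.0543). ACLY lay nearest to CD4 (0.0965), at a mean of 3.014 CPM in Con, and to SC5D (0.0988). The nearest genes to ACSS2 were farther, LBHD1 (0.226) and CSKMT (0.286), as were those to ME1, GPAT3 (0.118), a glycerol phosphate acyltransferase, and GPR137B (0.151). ACACA, ELOVL6 and FADS2 spanned 0.73, 0.95 and 0.74 log2 units and were not matched, since a span over 1 was required.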

How the data were processed

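Libraries were assigned to groups by their titles, and table columns to libraries by the library names in the labels. Per the study's methods, the authors aligned reads with STAR to GRCh38.p14 and deposited raw counts per gene from featureCounts, with no normalization or batch correction. The methods name GENCODE v46. The study describes 3 biological replicates per group in 1 sequencing run. Differential expression used edgeR 4.0.16 in R 4.3.3 (filterByExpr with minimum count 10 and minimum total 15, TMM scaling, quasi-likelihood model, fitted to the 18 libraries with a coefficient for each of the 6 groups). Benjamini-Hochberg adjustment ran over all 14557 genes tested. A call is an adjusted p under 0.05. DESeq2 1.42.0, other scalings, other filters, a replicate block and leaving out each library were alternatives. The procedure was tested on simulated data. Deviations of same-numbered libraries from their group means were weakly correlated (45 correlations, -0.204 to 0.194, median 0.0239, 7 above 0.1). Those of replicate 2 were positive among all groups but RES (0.0251 to 0.194), so a weak pairing is not excluded. The 10 genes, the 9 lists, the motifs and the naming rule were chosen with earlier results of these data known. Genes named from a list were up to 3 called genes with the largest absolute change in the comparison, plus CD36 and FABP1, the 2 nearest profiles to each gene spanning over 1 log2 unit (mean of at least 1 CPM), and exceptions chosen after their values were seen (NR1H3, THRSP, and MYLIP as described). Some genes that this rule names are not reported here. Intervals are at 95% and rest on the fitted spread between 3 libraries.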

Additional observations from a re-analysis of the deposited data

How the results depend on the processing

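Of the alternatives to the log2 fold changes of the 10 genes, 2767 kept direction and side of the threshold, 25 lost a call, 32 gained one and 16 turned direction, none of the last on a called value. Many of these fits leave out a library of a group outside the comparison, which leaves its fold change nearly fixed. Values not called in either fit also count as kept, so 2767 does not measure how stable the calls are. Requiring an absolute log2 fold change over 1 left 2 genes in Model against Con (1.95% of all genes) and 3 in RES against Model (9.91%). It left 0 in FUCO-1 and 0 in FUCO-2 against Model, and 0 in FUCO-2 against either lower dose. Against Con it left 2 in FUCO-0.5, 2 in FUCO-1 and 4 in FUCO-2. At this threshold the share of all genes was counted only for Model against Con and RES against Model. It was not counted in the alternative fits. FUCO-0.5 against Model called 1 gene with DESeq2, 1 with a 2-group fit and 2 with no filter on low counts. Leaving out single libraries gave 0 to 2 calls there, 1 to 3 in FUCO-1 against Model, and 3 to 7 in FUCO-2 against FUCO-1.

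The log2 fold change of ME1 in Model against Con was 0 without the RES libraries, 0.018 by upper quartile scaling, and -0.074 to 0.116 with single libraries left out. FADS2 in FUCO-0.5 against Con was 0.009 by upper quartile scaling and -0.077 to 0.055 with libraries left out. Leaving out libraries also gave ACLY -0.013 to 0.038 in FUCO-0.5 and -0.003 to 0.096 in FUCO-1 against Model, ACSS2 -0.088 to 0.081 and ACACA -0.026 to 0.046 in FUCO-1 against Model, and ACACA -0.11 to 0.14 in FUCO-2 against Model. FASN in FUCO-2 against FUCO-1 was called with no filter (adjusted p = 0.00683). In FUCO-2 against FUCO-0.5, SREBF1 ranged from -0.19 to 0.17 and ACACA from -0.033 to 0.218, and ACACA from -0.13 to 0.12 in FUCO-2 against FUCO-1. The cause was not tested. Of the list counts, 82 held and 8 moved by over 1.5 times, each with DESeq2: it called 1 LXR target and 1 thyroid hormone response gene in Model, 2 cholesterol-side and 1 PPAR target in FUCO-0.5, and 2 LXR targets and 1 gene each of the supply, PPAR and thyroid lists in FUCO-1.

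The replicate block changed the count of calls only in FUCO-2 against FUCO-1, to 5, by adding FADS2 (-0.28, adjusted p = 0.0424). A weak pairing by replicate number was not excluded. Precision is limited by 3 libraries per group and, for CD36 and other genes of few counts, by depth.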

Other observations

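Of 9 PPAR targets of the fatty acid load response, 8 were higher and 1 lower in Model against Con (median 1.09, against 0.001 over all genes), among them CREB3L3 (1.80) and PDK4 (1.37). In FUCO-2 against Model 4 were lower and 0 higher (median -0.35), among them PDK4 (-0.47), and in RES 4 were higher and 3 lower (median 0.03), among them CREB3L3 (-1.86) and ANGPTL4 (1.60). Among 16 genes of activation and esterification to triglyceride, 5 were lower and 1 higher in Model (median 0.05), led by LPIN1 (-1.22), ACSL3 (-0.93) and ACSL5 (0.87). DESeq2 did not call ACSL5 (adjusted p = 0.0652). In FUCO-2 5 were lower and 1 higher (median -0.07), led by the acyltransferase genes GPAT3 (0.97) and GPAM (-0.95), and in RES 7 were lower and 4 higher (median -0.18), led by ACSL6, at 1 to 3 counts in RES and 7 to 12 in Model so that no fold is given, GPAT3 (1.81) and GPAM (-1.58).

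Of 9 uptake and binding genes, 2 were higher in Model (median 0.11), FABP5 (0.67) and CAV1 (0.36), near the share of all genes called. In FUCO-2 3 were lower and 1 higher (median 0.07), led by FABP1 (-0.73), the liver fatty acid binding protein, and SLC27A3 (-0.55). DESeq2 did not call the higher gene (adjusted p = 0.0509). In RES 4 were lower and 3 higher (median -0.02), led by FABP1 (-1.44), FABP5 (0.87) and SLC27A2 (0.78), and FABP1 was also lower in FUCO-0.5 (-0.42, adjusted p = 0.0479). The fatty acid translocase CD36 held 51, 16 and 12 counts (2.948, 0.9553 and 0.649 CPM) in Con and 33, 19 and 31 counts (1.81, 1.057 and 1.679 CPM) in Model, so its Con level rests on Con replicate 1. It had a log2 fold change of 0.28 in FUCO-2 against Model (adjusted p = 0.635) and no call in the other comparisons by edgeR (adjusted p of at least 0.635).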
